A study of Mus musculus with 10 samples.

Results

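The 36 genes described here encode the machinery of mitosis and chromosome segregation, the steps in which a cell condenses its duplicated chromosomes, attaches them to the spindle, pulls them apart and divides. They were taken by name from a table of read counts for 24015 mouse genes, and all 36 had a row. They comprise mitotic cyclins and their kinase, the Aurora and Polo kinases with the spindle checkpoint, the anaphase promoting machinery, the chromosomal passenger complex, kinetochore proteins, spindle motors, cytokinesis proteins and 2 proteins of mitotic chromosomes.

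RNA sequencing was done in MAF9 cells, C57BL/6 mouse bone marrow cells transduced with the leukemia fusion gene MLL-AF9, which all groups carry. The culture medium, IMDM, held 10 ng/ml IL-3 beside 15% FBS, and the cells were treated for 4 days with DMSO or with 1 of 4 inhibitors at its IC50 dose. MM-401 keeps MLL1 from binding its partner WDR5, EPZ5676 (EPZ in the labels) inhibits the H3K79 methyltransferase DOT1L, MI-2-2 (MI or MI-2 in the labels) blocks the binding of MENIN to MLL proteins, and iBET inhibits BET bromodomain proteins. Each of the 5 conditions had 2 libraries, called biological duplicates by the submitters, and the cells are a transduced culture rather than a cloned line or a leukemia in an animal.

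Most of these genes are transcribed in G2 and M phase and are nearly silent in resting cells, so that their RNA is widely read as a sign of dividing cells. Their promoters are known for the cell cycle genes homology region (CHR), which the MuvB complex binds together with MYBL2 and FOXM1, and for CCAAT boxes, which NF-Y binds. In leukemia driven by MLL fusions, loss of the fusion program is known to slow division and to let cells mature along the neutrophil and macrophage path. In RNA from whole cultures, fewer cells in mitosis and less mitotic RNA per cell cannot be told apart.

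Libraries held between 20394762 and 29473127 counted reads. A total of 12971 genes passed the filter on low counts and were tested, among them all 36 mitosis genes. The 2 DMSO libraries stood apart from each other. The Y-linked genes had 3630 reads in DMSO replicate 2 and at most 2 in each other library, and Xist, made by the inactive X chromosome, was at 4.76 CPM there against 928 to 3051 CPM elsewhere, a difference that the labels do not mention. Of all genes tested, 36.6% were more than 1.5-fold apart between the DMSO libraries, against 9.45% to 16.7% within the inhibitor groups. For this reason each called change against DMSO is given below with and without each DMSO library. In the Y-linked genes and Xist only DMSO replicate 1 was like the inhibitor libraries. The part of this difference in the changes against DMSO was not tested. Markers of other or more mature cells moved with the groups. Markers of maturing neutrophils, 10 genes such as Ltf, Ngp and S100a8, summed to 47974 and 61208 CPM with EPZ5676 and 43291 and 42314 CPM with MI-2-2, against 769 to 6179 CPM with DMSO and MM-401 and 1213 and 520 CPM with iBET, and all 10 rose with EPZ5676 and with MI-2-2. The 9 macrophage markers also all rose with both, and summed to 365 to 762 CPM there against 78.9 to 143 CPM in the other 6 libraries. With MM-401 all 9 macrophage and 9 of the 10 neutrophil markers had positive log2 fold changes against DMSO, and 0 were called in edgeR. DESeq2, a second test, called 2 macrophage and 3 neutrophil markers higher with MM-401 (2.2% of all genes in either direction). Of 14 progenitor markers 3 rose and 6 fell with EPZ5676, and 3 and 7 with MI-2-2. Of all genes tested 18.7% rose and 19.4% fell with EPZ5676, and 20.2% and 21.2% with MI-2-2. The progenitor sums were 4035 to 4900 CPM with these inhibitors and 8596 and 7616 CPM with iBET. They were 12286 and 12446 CPM with MM-401 and 11859 and 14794 CPM with DMSO. Stromal markers, nearly all of it Col1a1, summed to 5.98 and 17.1 CPM with EPZ5676 and 2.90 and 10.5 CPM with MI-2-2, against at most 1.32 CPM elsewhere, while Col1a2, Col3a1 and Dcn had no read. T or NK cell markers summed to 67.3 CPM in DMSO replicate 2, of which Nkg7 made up 67.2 CPM, and to at most 5.70 CPM elsewhere, with Cd3e, Cd8a and Ncr1 at 0 throughout. B cell markers reached at most 7.72 CPM, most of it Cd79b, with Ms4a1, Pax5 and Ebf1 at 0, and the hemoglobin genes had no read. The megakaryocyte list stayed at 0.63 to 9.71 CPM and the mast cell or basophil list at 6.89 to 20.9 CPM. The part of these cells in the results below was not tested.

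Promoter sequences are shown first because they show what the genes share beyond their function. RefSeq promoters (GRCm38.p6, 250 bases before to 50 after the start) were found for 32 of the 36 genes, 35 promoters in all, and none was found for Ccna2, Tpx2, Kif20a and Aurkb. The CHR letters, TTTGAA or TTTAAA on either strand, stood in 31 of the 35 promoters (88.6%), against 27.6% of all 32851 promoters of this length and 25% of the 32 promoters of a DNA replication list. CCAAT on either strand stood in 71.4%, against 37.4% of all promoters and 53.1% of the replication list, and a CCAAT match can share a base with a CHR match. The E2F letters TTTCGCGC or TTTGGCGC were rarer, at 2.86% (1 promoter, that of Cdk1), against 0.813% of all promoters and 28.1% of the replication list. The E-box CACGTG stood in 8.57%, against 7.15% of all promoters and 9.38% of the replication list. The promoters of Bub1, Mad2l1, Nuf2 and Nusap1 held no CHR letters in this window. The Mad2l1 window ends at chr6:66535270, before the gene's start at 66535390 in the GENCODE annotation, so the bases around that start were not searched.

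The last 150 bases before the start are shown for 5 genes called in the comparisons below, 3 with such letters and 2 without. Capitals mark the CHR and CCAAT letters on either strand. Plk1 (chr7:122159285-122159434, plus strand) and Cdc20 (chr4:118437344-118437493, minus strand) hold both, and Kif23 (chr9:61946800-61946949, minus strand) holds a CCAAT box on the other strand here, with its CHR letters at the start itself. Nusap1 (chr2:119618148-119618297, plus strand) and Mad2l1 (chr6:66535071-66535220, plus strand) hold neither.
Plk1: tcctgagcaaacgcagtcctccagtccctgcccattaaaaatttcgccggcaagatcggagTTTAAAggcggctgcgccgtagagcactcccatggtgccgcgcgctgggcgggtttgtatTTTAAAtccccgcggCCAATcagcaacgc
Cdc20: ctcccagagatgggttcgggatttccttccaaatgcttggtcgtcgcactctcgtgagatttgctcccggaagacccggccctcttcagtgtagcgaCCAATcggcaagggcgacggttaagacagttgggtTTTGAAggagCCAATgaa
Kif23: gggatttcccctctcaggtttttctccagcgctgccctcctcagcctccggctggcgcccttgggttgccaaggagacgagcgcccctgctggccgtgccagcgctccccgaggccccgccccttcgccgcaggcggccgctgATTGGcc
Nusap1: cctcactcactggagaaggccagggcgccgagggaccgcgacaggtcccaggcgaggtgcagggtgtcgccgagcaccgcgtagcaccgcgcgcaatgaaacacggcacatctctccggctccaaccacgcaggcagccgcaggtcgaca
Mad2l1: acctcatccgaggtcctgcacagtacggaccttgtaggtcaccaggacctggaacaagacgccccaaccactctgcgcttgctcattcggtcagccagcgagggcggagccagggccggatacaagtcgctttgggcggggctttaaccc

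The mitosis genes took up 0.585% to 0.788% of the reads of a library. Their summed level, in TMM-scaled CPM (counts per 1e+06 reads), was 7169.9 and 6433.3 with DMSO, 6226.8 and 6224.9 with MM-401, 8128.4 and 7526.8 with EPZ5676, 6764.0 and 6301.5 with MI-2-2, and 6267.8 and 5762.2 with iBET. On this scale EPZ5676 libraries were the highest and iBET replicate 2 the lowest, and the DMSO libraries overlapped those of MI-2-2. By share of reads, DMSO replicate 1 (0.776%) was above EPZ5676 replicate 2 (0.68%), and MI-2-2 replicate 2 (0.585%) was below iBET replicate 2 (0.593%). The range across all 10 libraries was narrow for single genes. The highest library was between 1.29-fold (Ect2) and 3.29-fold (Kif23) above the lowest, with a median of 1.55-fold, and 33 of 36 genes stayed under 2-fold. Only Anln, Nusap1 and Kif23 exceeded it. The group mean was highest with EPZ5676 for 23 genes and with DMSO for 11, and lowest with iBET for 20 and with MI-2-2 for 9.

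**Figure D1:**
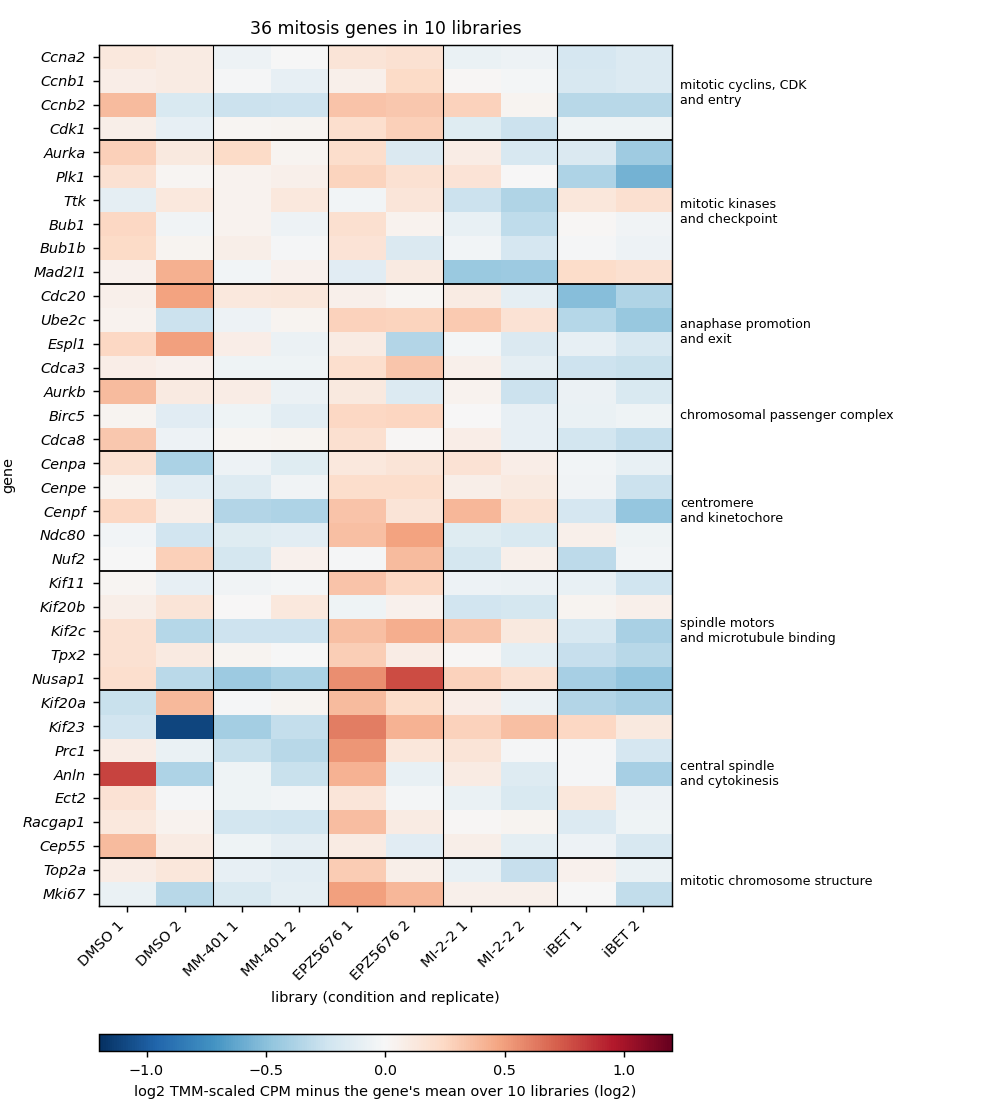
Level of each of the 36 genes (rows, ordered by role) in each of the 10 libraries (columns), as log2 TMM-scaled CPM minus the mean of that gene. The EPZ5676 columns are mostly above the gene's mean and the iBET columns mostly below it, while Anln (289 and 127 CPM), Kif23 (104 and 56.6 CPM) and Kif20a (101 and 159 CPM) differ most between the DMSO columns. EPZ5676 and MI-2-2 values would be lower throughout with scaling by total counts.

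Per kilobase of exon, the order of levels followed no single role. Top2a, the topoisomerase that untangles sister chromosomes, was the highest at a median of 162 CPM per kb. It was followed by Mki67, the protein that coats mitotic chromosomes, at 105 CPM per kb, Ccnb2 at 105 and the centromeric histone Cenpa at 90.7. The lowest were the separase gene Espl1 at 13.8 CPM per kb and the checkpoint gene Mad2l1 at 11.4. Exons of 7 genes overlap those of a gene on the other strand in the GENCODE annotation, most of all Kif20a with Cdc23 (31.8% of its exon length), Ube2c with Tnnc2 (22.8%) and Prc1 with Rccd1 (21.8%). Whether counting used the strand is not given in the sources used here, so reads of such pairs may be shared.

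The first question was how each inhibitor moved these genes against DMSO. With MM-401 none of the 36 genes was called, in either direction, at an adjusted p of 0.05 in edgeR's quasi-likelihood test, nor were any of the 12971 genes tested (0% higher and 0% lower). DESeq2 called 0 of the 36 as well (2.2% of all genes), and 3 had an unadjusted p below 0.05 in edgeR (Cenpf, Racgap1 and Cep55). The median log2 fold change of the 36 genes was -0.12, beside -0.01 over all genes tested, and 30 of 36 values were negative. For counts at an unadjusted p and counts of signs, here and below, the share of all genes was not computed. Cenpf, a large kinetochore and nuclear matrix protein, was at 201 and 178 CPM with DMSO and 133 and 131 CPM with MM-401, which do not overlap. Its log2 fold change was -0.52 (SE 0.14, adjusted p = 0.305 in the edgeR test). Without DMSO replicate 1 a single gene, Kif23, was called (log2 fold change 0.76, adjusted p = 0.0148 in edgeR), where 10.2% of all genes were.

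With EPZ5676, 7 of the 36 genes rose (19.4% of them, against 18.7% of all genes tested) and none fell (against 19.4% of all genes tested). DESeq2 called 9 higher and 0 lower (41.7% of all genes in either direction), and 10 had an unadjusted p below 0.05 in edgeR. The 7 were Kif23, Nusap1, Mki67, Ndc80, Ube2c, Kif11 and Birc5. The direction of the group depended on the scaling. The median log2 fold change was 0.09 beside -0.06 over all genes with TMM scaling, and -0.08 beside -0.23 with scaling by total counts. With total counts 3 genes rose (Ndc80, Nusap1 and Kif23) and 3 fell (Mad2l1, Espl1 and Kif20b), where 42.9% of all genes were called. Without DMSO replicate 1, 11 rose and 3 fell, where 51% of all genes were called in either direction, and without DMSO replicate 2, 5 rose and 0 fell, where 35.5% were. With the replicate number as a block, 9 rose and 2 fell, where 47.6% were. None of the 7 was called in a fit of the EPZ5676 and DMSO libraries alone, where 9.34% of all genes were.

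Kif23 encodes the motor of the central spindle that is needed for cytokinesis. It was at 104 and 56.6 CPM with DMSO and 186 and 163 CPM with EPZ5676. The groups do not overlap, although the DMSO libraries themselves were 1.83-fold apart. The log2 fold change of 1.12 (SE 0.25, adjusted p = 0.00997 in edgeR) is 2.18-fold. It was 1.63 without DMSO replicate 1 and 0.78 without DMSO replicate 2, and called in both cases, but not without EPZ5676 replicate 1 (adjusted p = 0.0507 in edgeR).

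Nusap1, which binds and bundles spindle microtubules, was at 110 and 76.5 CPM with DMSO and 141 and 164 CPM with EPZ5676. The difference was 0.71 on the log2 scale (SE 0.17, adjusted p = 0.0138 in edgeR). It was 1.00 and 0.50 without DMSO replicates 1 and 2, and not called without EPZ5676 replicate 2 (adjusted p = 0.0825 in edgeR). Mki67 was at 1031 and 870 CPM with DMSO and 1540 and 1436 CPM with EPZ5676, with no overlap. Its log2 fold change was 0.65 (SE 0.16, adjusted p = 0.0142), and 0.78 and 0.55 without DMSO replicates 1 and 2 in the same test. It was not called without EPZ5676 replicate 1 or with total counts (adjusted p = 0.0619 and 0.0524 in edgeR).

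Ndc80, the kinetochore subunit that grips microtubules, was at 66.7 and 58.3 CPM with DMSO and 88.0 and 95.9 CPM with EPZ5676, and its EPZ5676 libraries were the highest of all 10. It rose by 0.56 on the log2 scale (SE 0.11, adjusted p = 0.00708 in edgeR), and it was 0.66 and 0.49 without DMSO replicates 1 and 2. It stayed called when any 1 library of either group was left out and with total counts. Its partner Nuf2, at 94.7 and 116 CPM with DMSO and 94.5 and 124 CPM with EPZ5676, overlapped between the groups. Kif11, the motor that pushes spindle poles apart, was at 281 and 259 CPM with DMSO and 352 and 330 CPM with EPZ5676, a log2 fold change of 0.34 (SE 0.11, adjusted p = 0.0433 in edgeR). The ubiquitin-conjugating enzyme Ube2c, which works with the anaphase promoting complex, was at 136 and 111 CPM with DMSO and 160 and 159 CPM with EPZ5676, a log2 fold change of 0.37 (SE 0.13, adjusted p = 0.0496 in edgeR). None of the 7 genes called with EPZ5676 overlaps between the groups, and the share over all genes was not counted. Birc5 (survivin), of the chromosomal passenger complex, was at 129 and 115 CPM with DMSO and 151 in each EPZ5676 library, a log2 fold change of 0.30 (SE 0.10, adjusted p = 0.0494 in edgeR). Without DMSO replicates 1 and 2 the values were 0.40 and 0.30 for Kif11, 0.53 and 0.25 for Ube2c, and 0.39 and 0.25 for Birc5. All of them lost their call without DMSO replicate 2, without either EPZ5676 library and with total counts.

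Of the 6 kinase and checkpoint genes (Aurka, Plk1, Ttk, Bub1, Bub1b and Mad2l1) none was called in edgeR with EPZ5676 in the fit of all libraries. Of all genes tested 38.1% were called in either direction. None of the 6 had an unadjusted p below 0.05, and their log2 fold changes ran from -0.26 to 0.12. With total counts Mad2l1 was called lower. The Aurora kinase Aurkb of the passenger complex was at 169 and 140 CPM with DMSO and 141 and 116 CPM with EPZ5676 (log2 fold change -0.27, SE 0.16, adjusted p = 0.216 in edgeR).

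**Figure D2:**
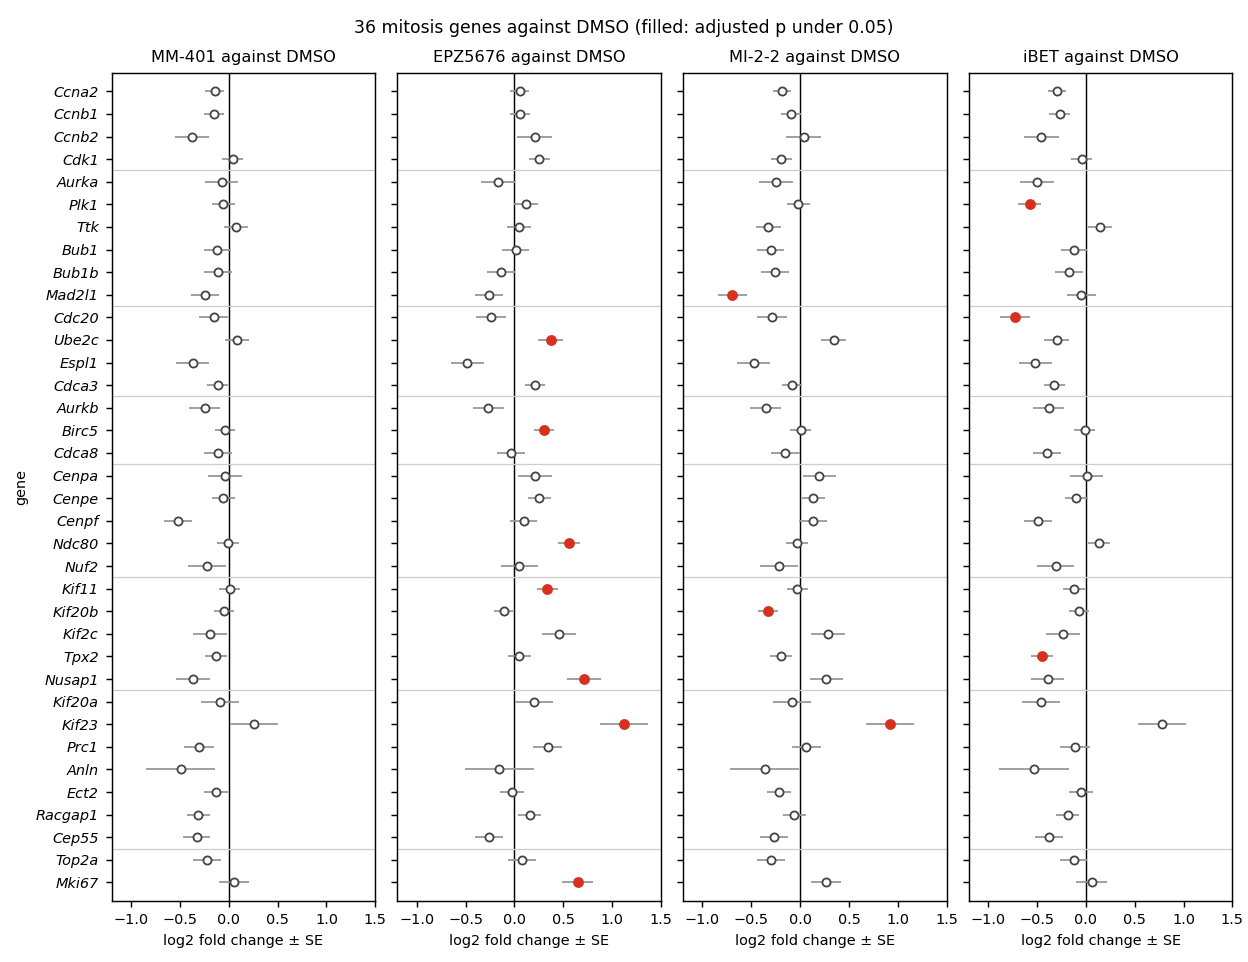
Log2 fold change of each of the 36 genes (rows) against DMSO for each inhibitor (panels: MM-401, EPZ5676, then MI-2-2, then iBET), with bars of 1 SE and filled points for an adjusted p under 0.05 in edgeR. Filled points number 0, 7, 3 and 3 from left to right. The comparisons share the DMSO libraries, and with total counts the EPZ5676 median moves from 0.09 to -0.08.

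With MI-2-2, 1 gene rose (2.78% of the 36, against 20.2% of all genes tested) and 2 fell (5.56%, against 21.2%). DESeq2 called 2 higher and 2 lower (44.6% of all genes in either direction). The median log2 fold change was -0.12 beside -0.05 over all genes, and -0.28 beside -0.20 with total counts. In that setting 1 gene rose and 7 fell, where 44.8% of all genes were called in either direction. Kif23 rose, at 148 and 156 CPM against 104 and 56.6 CPM with DMSO, with no overlap. Its log2 fold change was 0.92 (SE 0.25, adjusted p = 0.019 in edgeR), 1.43 without DMSO replicate 1 and 0.59 without DMSO replicate 2, and it was not called without either MI-2-2 library. Mad2l1 encodes the checkpoint protein that restrains CDC20 until every chromosome is attached. It was at 91.2 and 119 CPM with DMSO and 64.5 and 65.2 CPM with MI-2-2, the lowest of all 10 libraries. Its log2 fold change was -0.69 (SE 0.15, adjusted p = 0.0077 in edgeR), and -0.87 and -0.46 without DMSO replicates 1 and 2. Kif20b, a kinesin of late cytokinesis, was at 146 and 155 CPM with DMSO and 119 and 121 CPM with MI-2-2. It fell by 0.33 on the log2 scale (SE 0.10, adjusted p = 0.0309 in edgeR), and -0.37 and -0.26 without DMSO replicates 1 and 2, and it was not called without DMSO replicate 2 or either MI-2-2 library. Mad2l1 and Kif23 also fell out of the calls in a fit of the 4 MI-2-2 and DMSO libraries alone (adjusted p = 0.0791 and 0.118 in edgeR), as did Kif20b. Without DMSO replicate 1, 6 genes rose and 6 fell (53.9% of all genes called), and without DMSO replicate 2, 1 rose and 3 fell (37.6% of all genes). With the replicate number as a block 2 rose and 6 fell (50.6% of all genes), and without either MI-2-2 library Mad2l1 alone was called.

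With iBET, 3 genes fell (8.33% of the 36, against 7.54% of all genes tested) and none rose (against 6.38%). DESeq2 called 8 lower and 1 higher (21.8% of all genes in either direction). In edgeR 16 of the 36 had an unadjusted p below 0.05, with the share of all genes not computed. The median log2 fold change was -0.25 beside -0.04 over all genes, and 31 of 36 values were negative. The largest change in either direction was a rise of Kif23, as with EPZ5676 and MI-2-2. Kif23 was at 144 and 132 CPM with iBET, against 104 and 56.6 CPM with DMSO. Its log2 fold change of 0.78 was not called in edgeR but was called in DESeq2. Cdc20, the activator of the anaphase promoting complex, was at 100 and 134 CPM with DMSO and 67.4 and 74.7 CPM with iBET. Cdc20 had a log2 fold change of -0.72 (SE 0.15, adjusted p = 0.022 in edgeR), and -0.92 and -0.50 without DMSO replicates 1 and 2. Plk1, the Polo-like kinase of spindle assembly and mitotic exit, was at 134 and 120 CPM with DMSO and 91.0 and 79.4 CPM with iBET, the lowest of the 10 libraries. For Plk1 the log2 fold change was -0.57 (SE 0.12, adjusted p = 0.0204 in edgeR), and -0.49 and -0.65 without DMSO replicates 1 and 2. Tpx2, which activates Aurora A on the spindle, was at 263 and 251 CPM with DMSO and 192 and 184 CPM with iBET (log2 fold change -0.45, SE 0.11, adjusted p = 0.0401 in edgeR). It was -0.41 and -0.48 without DMSO replicates 1 and 2. Tpx2 was not called with total counts (adjusted p = 0.0538 in edgeR). All 3 stayed called without either DMSO library and lost the call without either iBET library and in a fit of iBET and DMSO alone. Without DMSO replicate 1, 5 genes fell and Kif23 rose (27.9% of all genes called), and without DMSO replicate 2, 11 fell, among them Ccnb2, Cdca8, Kif2c and Cep55 (21.6% of all genes). With the replicate number as a block, 11 fell and 1 rose (23.8% of all genes).

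**Figure D3:**
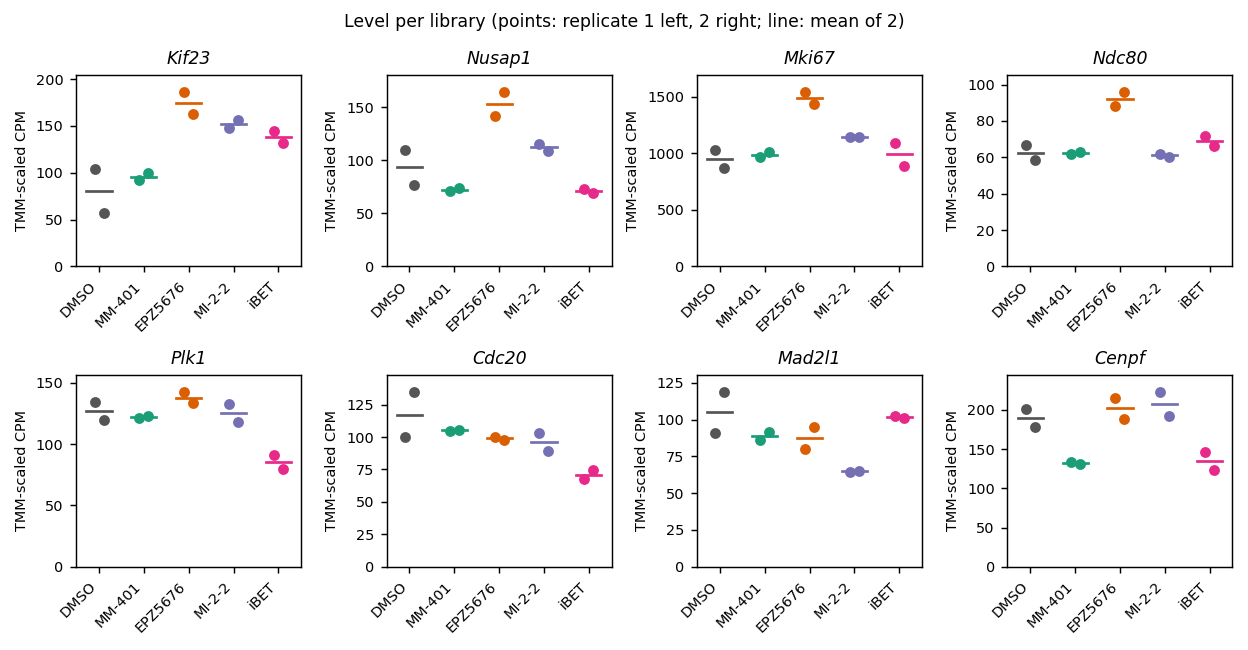
TMM-scaled CPM of 8 genes in the 10 libraries, with 1 point per library and a line at the mean of 2. Kif23, Nusap1, Mki67 and Ndc80 are highest with EPZ5676, Plk1 and Cdc20 are lowest with iBET, Mad2l1 is lowest with MI-2-2, and Cenpf is lower with MM-401 and iBET than in the other groups.

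The remaining landmark genes were not called against DMSO in edgeR. Cdk1, the kinase that starts mitosis, was at 231 and 205 CPM with DMSO, 223 and 225 with MM-401, 253 and 267 with EPZ5676, 198 and 184 with MI-2-2, and 211 and 212 with iBET. Its EPZ5676 libraries were above and its MI-2-2 libraries below all others. Against DMSO its log2 fold change was 0.25 with EPZ5676 and -0.19 with MI-2-2 (SE 0.11 for each, adjusted p = 0.0973 and 0.187 in edgeR). The difference with EPZ5676 was called by DESeq2 (0.29, adjusted p = 0.0171) and without DMSO replicate 1 (0.35, adjusted p = 0.0333 in edgeR). Ccnb1, the cyclin that activates it, was at 59.4 and 60.3 CPM with DMSO, 55.5 and 52.3 with MM-401, 58.7 and 65.8 with EPZ5676, 56.8 and 55.3 with MI-2-2, and 49.1 and 50.2 with iBET. The iBET libraries were the lowest, with a log2 fold change of -0.27 (SE 0.11, adjusted p = 0.125 in edgeR).

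Top2a was at 909 and 937 CPM with DMSO, 797 and 782 with MM-401, 1055 and 896 with EPZ5676, 802 and 703 with MI-2-2, and 886 and 806 with iBET. Its largest difference from DMSO was a log2 fold change of -0.30 with MI-2-2 (SE 0.14, adjusted p = 0.13 in edgeR). Mki67 was at 963 and 1007 CPM with MM-401, 1140 in each MI-2-2 library and 1090 and 891 with iBET, beside its DMSO levels given above. The MI-2-2 libraries were above both DMSO libraries, with a log2 fold change of 0.26 (SE 0.16, adjusted p = 0.207 in edgeR). Birc5 was at 122 and 116 CPM with MM-401, 127 and 118 with MI-2-2, and 120 and 122 with iBET, all within the DMSO range. Kif11 was at 270 and 273 CPM with MM-401, 265 in each MI-2-2 library and 261 and 235 with iBET. Its log2 fold changes against DMSO were 0.01, -0.03 and -0.12, and the first 2 changed sign with the scaling or filter.

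Cenpa was at 167 and 113 CPM with DMSO, 140 and 132 with MM-401, 160 and 163 with EPZ5676, 165 and 155 with MI-2-2, and 143 and 138 with iBET. The DMSO libraries spanned every other value, and its log2 fold changes of -0.04, 0.21, 0.20 and 0.01 had an SE of 0.17 each and adjusted p-values from 0.363 to 0.988 in edgeR. The value of 0.01, with iBET, turned to -0.03 with total counts. Anln, the scaffold of the cytokinetic ring, was at 289 and 127 CPM with DMSO, 159 and 137 with MM-401, 219 and 155 with EPZ5676, 176 and 148 with MI-2-2, and 163 and 125 with iBET. All 8 inhibitor libraries were below DMSO replicate 1, and 7 of them above DMSO replicate 2. Its log2 fold change therefore turned from negative to positive with each inhibitor when DMSO replicate 1 was left out, and no value was called in the fit of all libraries (SE 0.35 to 0.36, adjusted p from 0.335 to 0.75 in edgeR). Aurkb was at 137 and 123 CPM with MM-401, 133 and 109 with MI-2-2, and 123 and 114 with iBET, with log2 fold changes of -0.25, -0.35 and -0.38 (SE 0.16 each, adjusted p from 0.111 to 0.619 in edgeR). Plk1 was at 121 and 123 CPM with MM-401, 142 and 134 with EPZ5676, and 132 and 118 with MI-2-2, with log2 fold changes of -0.06, 0.12 and -0.02, of which the second turned to -0.05 with total counts and the third to 0.02 with DESeq2 size factors. Cdc20 was at 105 and 106 CPM with MM-401, 100 and 97.9 with EPZ5676, and 103 and 89.5 with MI-2-2.

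Comparisons between inhibitors do not use the DMSO libraries, whose spread enters only through the shared variance. Between EPZ5676 and iBET, 18 of the 36 genes were higher with EPZ5676 (50%, against 19.1% of all genes tested) and none was lower (against 18.5%). DESeq2 called 21 higher and 0 lower, and 21 genes had an unadjusted p below 0.05 in edgeR. The median log2 difference was 0.35 beside -0.04 over all genes, and 0.21 beside -0.18 with total counts. In that setting 4 genes were called higher and 1 lower, where 43.8% of all genes were called in either direction. The 18 came from every role. They were Ccna2, Ccnb1 and Ccnb2 of the cyclins, Plk1, then Cdc20, Ube2c and Cdca3 of mitotic exit, Birc5, then Cenpe, Cenpf and Ndc80 of the kinetochore, Kif11, Kif2c, Tpx2 and Nusap1 of the spindle, Kif20a and Prc1 of the central spindle, and Mki67.

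Nusap1 had the largest difference, at 141 and 164 CPM with EPZ5676 and 72.8 and 69.2 CPM with iBET. Its log2 difference was 1.10 (SE 0.17, adjusted p = 0.00233 in edgeR), 2.15-fold. Plk1 followed with 0.69 (SE 0.12, adjusted p = 0.00356 in edgeR), and these 2 genes kept the call without any single library and with total counts. Kif2c, the microtubule-depolymerizing kinesin of centromeres, was at 112 and 118 CPM with EPZ5676 and 76.8 and 66.8 CPM with iBET. Its log2 difference was 0.69 (SE 0.18, adjusted p = 0.018 in edgeR), and it was not called without any 1 of the 4 libraries. The count of 18 was 5 and 9 without EPZ5676 replicates 1 and 2, and 7 and 2 without iBET replicates 1 and 2, where 16.8% to 24.3% of all genes were called in either direction, against 37.6% with all libraries and 40.5% in DESeq2. It was 19 in a fit of these 4 libraries alone, where 45% of all genes were called in either direction.

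Between EPZ5676 and MM-401, 11 genes were higher with EPZ5676 (30.6%, against 16.7% of all genes tested) and none was lower (against 16.6%). DESeq2 called 16 higher and 0 lower, and 13 genes had an unadjusted p below 0.05 in edgeR. The median log2 difference was 0.26 beside 0.01 over all genes, and 0.11 beside -0.13 with total counts. In that setting 2 genes (Nusap1 and Ndc80) were called, where 37.7% of all genes were called in either direction. Nusap1 was at 70.9 and 73.7 CPM with MM-401, a log2 difference of 1.08 (SE 0.17, adjusted p = 0.00365 in edgeR), and kept its call without any single library. Kif23 was at 91.8 and 99.6 CPM with MM-401, a log2 difference of 0.87 (SE 0.25, adjusted p = 0.0294 in edgeR). Kif2c, at 73.6 and 73.8 CPM with MM-401, differed by 0.65 (SE 0.18, adjusted p = 0.0254 in edgeR). The others were Prc1, which bundles the central spindle, with Racgap1 of the same structure, Cenpf, Mki67, Ccnb2, Ndc80, Birc5 and Cdca3. Without EPZ5676 replicates 1 and 2, 2 and 4 genes were called, and without either MM-401 library Nusap1 alone, where 11.6% to 19.6% of all genes were called in either direction, against 33.3% with all libraries and 37.8% in DESeq2.

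Against MM-401 and iBET, MI-2-2 had called genes in both directions, each at a lower share than that of all genes tested. Against MM-401, 2 genes were higher (5.56%, against 18.0% of all genes tested) and 2 were lower (5.56%, against 17.6%). With total counts 1 was higher and 4 were lower (39.3% of all genes called in either direction). With DESeq2 size factors the split was 2 and 0 (35.3% of all genes), and DESeq2 called 4 and 2. Cenpf was at 223 and 192 CPM with MI-2-2, 0.65 above MM-401 on the log2 scale (SE 0.14, adjusted p = 0.01 in edgeR). Nusap1 was at 116 and 109 CPM with MI-2-2, 0.63 above MM-401 (SE 0.17, adjusted p = 0.0233 in edgeR). Mad2l1 was at 86.2 and 91.4 CPM with MM-401, and its log2 difference was -0.45 (SE 0.15, adjusted p = 0.043 in edgeR). Ttk, the kinase that starts checkpoint signaling at kinetochores, was at 46.0 and 42.7 CPM with MI-2-2 and 56.6 and 60.1 CPM with MM-401. Its log2 difference was -0.40 (SE 0.12, adjusted p = 0.0406 in edgeR). Without MI-2-2 replicate 2 a single gene, Cenpf, was called, and none without any of the other 3 libraries, where 12.9% to 19.5% of all genes were called, against 35.7% with all libraries and 40.1% in DESeq2.

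Against iBET, 5 genes were higher with MI-2-2 (13.9%, against 19.7% of all genes tested) and 2 were lower (5.56%, against 19.1%). With total counts the split was 4 and 3 (43.3% of all genes called in either direction), and DESeq2 called 9 and 2. The 5 were Nusap1, Ube2c, Cenpf, Plk1 and Kif2c, and the 2 were again Mad2l1 and Ttk. Nusap1 differed by 0.66 (SE 0.17, adjusted p = 0.0188 in edgeR). Ube2c was at 164 and 149 CPM with MI-2-2 and 104 and 96.5 CPM with iBET, a log2 difference of 0.64 (SE 0.13, adjusted p = 0.00639 in edgeR). Cenpf was at 147 and 123 CPM with iBET, a log2 difference of 0.62 (SE 0.14, adjusted p = 0.0112 in edgeR). Mad2l1 was at 102 and 101 CPM with iBET, and the log2 difference was -0.65 (SE 0.15, adjusted p = 0.011 in edgeR). Ttk was at 60.3 and 62.6 CPM with iBET, and its log2 difference was -0.47 (SE 0.12, adjusted p = 0.0204 in edgeR). Without MI-2-2 replicates 1 and 2, 1 and 3 genes were called, and without iBET replicates 1 and 2, 3 and 0, where 15.6% to 21.1% of all genes were called, against 38.8% with all libraries and 41.6% in DESeq2.

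**Figure D4:**
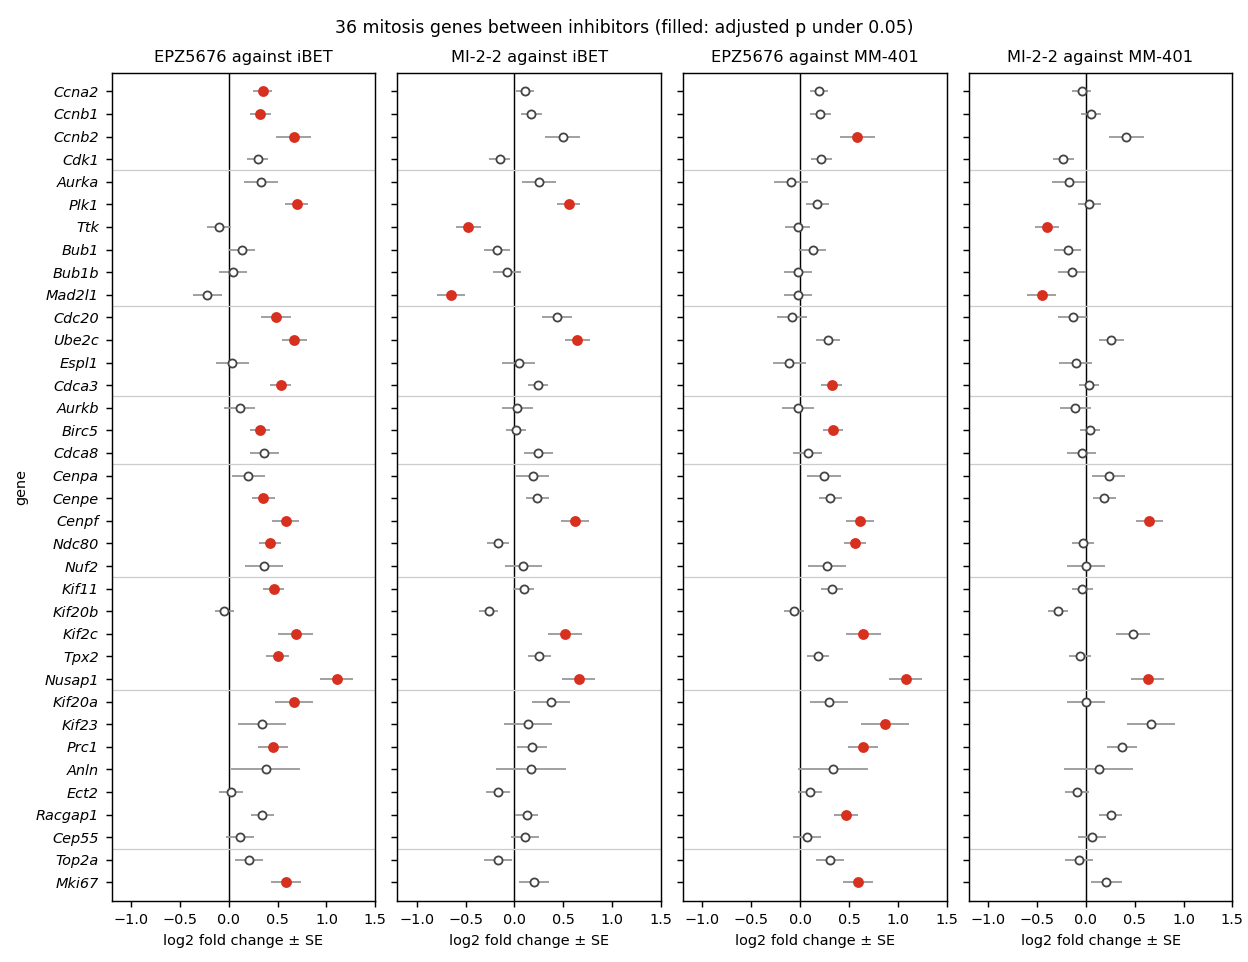
Log2 difference of each of the 36 genes (rows) between EPZ5676 or MI-2-2 and iBET or MM-401 (panels), with bars of 1 SE and filled points for an adjusted p under 0.05 in edgeR. Filled points number 18, 7, 11 and 4 from left to right. In the EPZ5676 panels all filled points are to the right of 0, and with total counts 1 gene of the EPZ5676 and iBET panel is called to the left.

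Between EPZ5676 and MI-2-2 no mitosis gene was called in edgeR (against 0.00771% of all genes tested higher and 0.00771% lower, 1 gene each). DESeq2 called 2 (Ndc80 and Cdk1, both higher with EPZ5676), where it called 1.2% of all genes in either direction. In edgeR 11 of the 36 had an unadjusted p below 0.05, with the share of all genes not computed. The median log2 difference was 0.21 beside -0.01 over all genes, and 34 of 36 values were positive. Ndc80 differed by 0.59 (SE 0.11, adjusted p = 0.218 in edgeR) and Cdk1 by 0.45 (SE 0.11, adjusted p = 0.347 in edgeR). Between iBET and MM-401, no gene was higher (against 5.48% of all genes tested) and Plk1 alone was lower (2.78%, against 5.96%), with a log2 difference of -0.52 (SE 0.12, adjusted p = 0.0315 in edgeR). Plk1 was not called when any 1 of these 4 libraries was left out. DESeq2 called 4 genes lower, where it called 18.1% of all genes in either direction, and 5 had an unadjusted p below 0.05 in edgeR.

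The other genes of the pathway were described from 5 lists. With MM-401 no gene of these lists was called in edgeR, while DESeq2 called 1 and 8 had p below 0.05 before adjustment in edgeR. Without DMSO replicate 1 the median log2 fold changes with MM-401 ran from -0.11 to 0.06 over the 5 lists. The counts below stand beside 18.7% of all genes tested higher and 19.4% lower with EPZ5676, 20.2% and 21.2% with MI-2-2, and 6.38% and 7.54% with iBET. Of 22 condensin and cohesin genes, 1 rose and 1 fell with EPZ5676, 0 and 6 with MI-2-2, and 0 and 1 with iBET. Pds5b, which regulates cohesin, fell with EPZ5676 and MI-2-2 by 0.59 and 0.78 on the log2 scale. Its values were -0.67 and -0.48 with EPZ5676 and -0.86 and -0.66 with MI-2-2 without DMSO replicates 1 and 2. Sgol2, the protector of centromeric cohesin, fell by 0.48 with iBET, and by 0.48 without either DMSO library. Of 34 other kinetochore and centromere genes tested, 1 rose and 5 fell with EPZ5676 (2.94% and 14.7%), 1 and 12 with MI-2-2 (2.94% and 35.3%), and 1 and 1 with iBET. Cenpm fell most, by 1.18 with EPZ5676 and 1.30 with MI-2-2 on the log2 scale. It was at -1.38 and -0.92 with EPZ5676, and -1.50 and -1.03 with MI-2-2, without DMSO replicates 1 and 2. Of 22 other spindle and motor genes, 3 rose with EPZ5676 and none fell. Among them Kifc1, a motor that moves toward microtubule minus ends, rose by 0.65, and by 0.50 with MI-2-2, where 1 gene of the list rose and 1 fell. Kifc1 without DMSO replicates 1 and 2 was at 0.73 and 0.60 with EPZ5676 and 0.58 and 0.46 with MI-2-2, and with total counts it was not called with MI-2-2 (adjusted p = 0.055 in edgeR). Of 16 subunits of the anaphase promoting complex, 0 rose and 6 fell with EPZ5676 (37.5%), 0 and 7 with MI-2-2 (43.8%), and 1 and 1 with iBET. Anapc1, its largest subunit, fell by 0.67 with EPZ5676, and by 0.89 without DMSO replicate 1, but was at -0.39 and not called without DMSO replicate 2 (adjusted p = 0.0857 in edgeR). Without DMSO replicates 1 and 2 the median log2 fold change of the kinetochore list was 0.03 and 0.09 with EPZ5676, and -0.25 and -0.18 with MI-2-2. That of the anaphase promoting complex was -0.36 and -0.10 with EPZ5676, and -0.39 and -0.30 with MI-2-2. That of the spindle and motor genes was 0.19 and 0.10 with EPZ5676. With total counts 2 spindle and motor genes rose and 2 fell with EPZ5676, where 42.9% of all genes were called in either direction. With iBET the medians of these 5 lists ran from -0.15 to 0.05 without 1 DMSO library.

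Of 27 genes of mitotic entry and G2/M transcription, 3 rose and 5 fell with EPZ5676 (11.1% and 18.5%), 3 and 8 with MI-2-2 (11.1% and 29.6%), and 1 and 2 with iBET. Without DMSO replicate 1 the median log2 fold change of the list was -0.02 with EPZ5676 and -0.08 with iBET, beside 0.05 and -0.15 with all libraries. With total counts 1 rose and 10 fell with EPZ5676, and 1 and 10 with MI-2-2. Of all genes 42.9% and 44.8% were called there in either direction. The CDK-activating phosphatase gene Cdc25a was at 121 and 162 CPM with DMSO, 289 and 294 with EPZ5676, and 83.8 and 83.0 with iBET. It rose by 1.04 with EPZ5676 (SE 0.16, adjusted p = 0.00236 in edgeR) and fell by 0.76 with iBET (SE 0.16, adjusted p = 0.0204 in edgeR). Without DMSO replicates 1 and 2 the values were 0.85 and 1.29 with EPZ5676 and -0.95 and -0.54 with iBET, all called. Of the regulators that bind CHR promoters, Mybl2 was at 144 and 125 CPM with DMSO, 87.6 and 77.8 with EPZ5676, and 89.3 and 84.3 with MI-2-2. It fell by 0.70 and 0.63 on the log2 scale (SE 0.13 each, adjusted p = 0.00435 and 0.00595 in edgeR). Mybl2 without DMSO replicates 1 and 2 was at -0.60 and -0.78 with EPZ5676 and -0.53 and -0.70 with MI-2-2, all called. Foxm1 was at 92.8 and 80.5 CPM with DMSO, 117 and 104 with EPZ5676, and 110 and 99.2 with MI-2-2, with log2 fold changes of 0.35 and 0.27 (adjusted p = 0.0611 and 0.125 in edgeR). Without DMSO replicate 1 these were 0.46 and 0.38 and were called (adjusted p = 0.0269 and 0.0497 in edgeR). Incenp, the scaffold of the chromosomal passenger complex, was at 261 and 257 CPM with DMSO, 318 and 287 with EPZ5676, 257 and 253 with MI-2-2, and 254 and 247 with iBET, and was not called.

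DNA replication genes act in S phase, before the mitosis genes. Of 37 on the list, 21 fell with EPZ5676, 29 with MI-2-2, 2 with iBET and 0 with MM-401 (3 at an unadjusted p below 0.05, DESeq2 0), and none rose in edgeR or DESeq2 (against 19.4% of all genes lower with EPZ5676, 21.2% with MI-2-2, 7.54% with iBET and 0% with MM-401). In fits of 2 groups alone 1 gene of the list fell with EPZ5676 and 8 with MI-2-2. Of all genes 9.34% and 9.12% were called there in either direction. The median log2 fold change of the list was -0.62 with EPZ5676 and -0.87 with MI-2-2, where the mitosis genes had 0.09 and -0.12. Without DMSO replicates 1 and 2 the list median was -0.75 and -0.39 with EPZ5676, and -0.94 and -0.64 with MI-2-2. With iBET it was -0.35 and -0.02, and with MM-401 -0.17 and 0.08. Mcm6, a subunit of the replicative helicase, was at 541 and 933 CPM with DMSO, 302 and 294 with EPZ5676, and 267 and 266 with MI-2-2. It fell by 1.31 and 1.47 on the log2 scale, by 1.65 and 1.80 without DMSO replicate 1 and by 0.84 and 0.99 without DMSO replicate 2. In fits of 2 groups alone, of the genes named from the lists only Cdc25a with EPZ5676 stayed called (adjusted p = 0.0485 in edgeR). The ratio of reads on the 36 mitosis genes to reads on the 37 replication genes depends on no scaling. It was 1.35 and 0.864 with DMSO, 1.11 and 1.05 with MM-401, 2.14 and 1.82 with EPZ5676, 2.06 and 1.89 with MI-2-2, and 1.27 and 1.06 with iBET. All 4 EPZ5676 and MI-2-2 libraries were above the other 6, which overlapped.

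**Figure D5:**
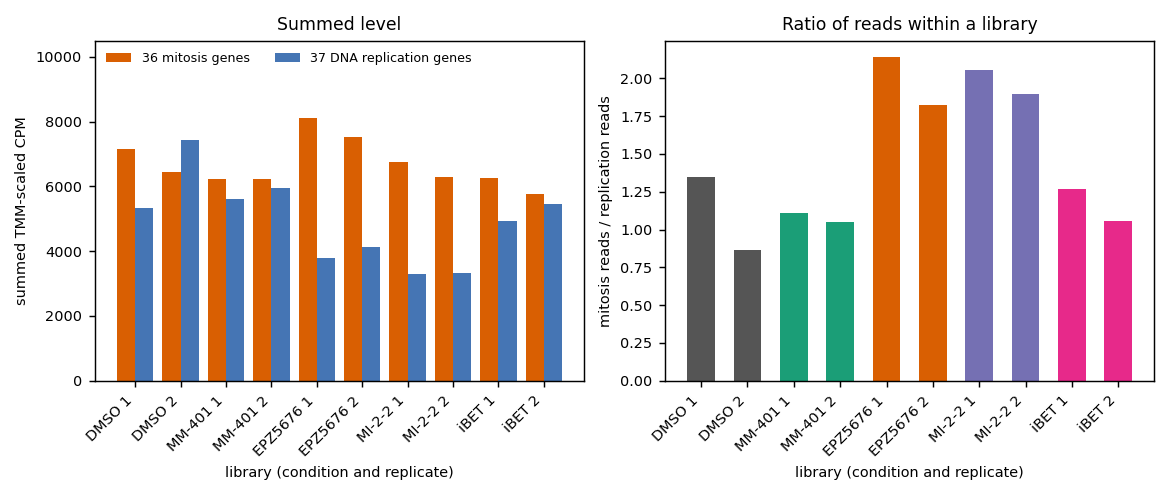
Summed TMM-scaled CPM of the 36 mitosis genes and the 37 DNA replication genes in each library (left), and the ratio of their reads (right). The ratio is 1.82 to 2.14 in the EPZ5676 and MI-2-2 libraries and 0.864 to 1.35 in the other 6, and the 2 DMSO libraries differ mainly in the replication genes (5330 and 7446 CPM).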

How the data were processed

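RNA sequencing covered 10 libraries of MAF9 cells in 5 conditions, grouped by their labels. The authors deposited 1 table of raw read counts per gene for 24015 genes, without normalization. The submitters' processing notes name TopHat2, Subread, DESeq and the build mm9, with no version. For the annotation, the strand setting and multi-mapped reads, no setting is given in the sources used here. The totals were 20394762 to 29473127 reads, and counting error is small against the spread between libraries. Replicates of a group differed by more than sampling noise and were kept as separate samples.

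Tests used edgeR 4.0.16 in R 4.3.3 (filterByExpr, TMM scaling and the quasi-likelihood test by glmQLFit and glmQLFTest). All 10 libraries entered 1 fit, with Benjamini-Hochberg adjustment over 12971 genes within each of the 10 comparisons and a threshold of 0.05. Each SE was derived from the F statistic, as the absolute log2 change over the root of F. CPM are TMM-scaled, except those of marker genes and Xist, which are scaled by total reads. DESeq2 1.42.0, other scalings and filters, a replicate block, fits of 2 groups and leaving out each library were alternatives, and the fit was tested on simulated data. The design was not blocked.

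All 36 mitosis genes are named. Landmark genes (Cdk1, Ccnb1, Aurkb, Plk1, Cdc20, Cenpa, Kif11, Anln, Mki67, Top2a, Birc5) are given in every library. Up to 3 called genes with the largest rise and 3 with the largest fall in each comparison are given in the libraries compared, and of the other lists up to 2 called genes each with Foxm1, Mybl2 and Incenp. Mlf1ip and Adgre1 of the lists had no matching symbol in the table. The members, lists and rules were chosen with earlier results of these data known. Gene lengths and overlaps come from GENCODE M21 and promoters from RefSeq, both on GRCm38, which is not the build of the counts, so genes were matched by symbol.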

Additional observations from a re-analysis of the deposited data

How the results depend on the processing

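Leaving out 1 library at a time, where the lone library was assumed to vary like the other groups, gave 3 to 14 called mitosis genes for EPZ5676 against DMSO, 1 to 12 for MI-2-2, 0 to 11 for iBET and 0 to 1 for MM-401, and 1 to 4 for EPZ5676 against MM-401, 0 to 1 for MI-2-2 against MM-401, 2 to 9 for EPZ5676 against iBET, 0 to 3 for MI-2-2 against iBET and 0 to 0 for iBET against MM-401, where 1 gene had been called. The cause of these moves, beyond fewer samples in the fit, was not tested. The median log2 fold change of the 36 genes stayed between -0.18 and -0.052 for MM-401, 0.078 and 0.18 for EPZ5676, -0.17 and -0.066 for MI-2-2, and -0.26 and -0.14 for iBET. Among landmark genes near 0 the ranges crossed 0. They were -0.60 to 0.56 with EPZ5676, -0.80 to 0.35 with MI-2-2, -0.98 to 0.22 with MM-401 and -1.01 to 0.18 with iBET for Anln, -0.022 to 0.52, -0.025 to 0.51, -0.31 to 0.28 and -0.25 to 0.32 in the same order for Cenpa, -0.046 to 0.094 with MI-2-2, -0.13 to 0.053 with MM-401 and -0.094 to 0.077 with iBET for Birc5, -0.026 to 0.14 for Ccnb1 and -0.040 to 0.20 for Top2a with EPZ5676, -0.44 to 0.010 with EPZ5676 and -0.35 to 0.056 with MM-401 for Cdc20, -0.059 to 0.13 with MM-401 and -0.12 to 0.052 with iBET for Cdk1, -0.051 to 0.037 with MI-2-2 and -0.065 to 0.073 with MM-401 for Kif11, -0.082 to 0.18 with MM-401 and -0.089 to 0.20 with iBET for Mki67, and -0.10 to 0.068 with MI-2-2 and -0.15 to 0.030 with MM-401 for Plk1.

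With total counts 8 genes were called for MI-2-2 against DMSO, 2 for EPZ5676 against MM-401, 5 for EPZ5676 against iBET and 2 for iBET against MM-401. Of all genes 44.8%, 37.7%, 43.8% and 11.4% were called in the same order. Under EPZ5676 the median was then -0.079 and under MI-2-2 -0.28, and the log2 fold change of Kif11 with MM-401 was -0.017, of Ccnb1, Plk1 and Top2a with EPZ5676 -0.11, -0.051 and -0.084, of Birc5 with MI-2-2 -0.15 and of Cenpa with iBET -0.030. With DESeq2 size factors 2 genes were called for MI-2-2 and 2 for iBET against MM-401, where 35.3% and 11.3% of all genes were. The median with MI-2-2 was -0.089, and Plk1 and Kif11 with MI-2-2 and Cenpa with iBET were at 0.016, 0.0073 and -0.013. The DESeq2 test called 9 genes for iBET against DMSO, 2 for EPZ5676 against MI-2-2, 11 for MI-2-2 against iBET and 4 for iBET against MM-401. It called 21.8%, 1.2%, 41.6% and 18.1% of all genes in the same order. Plk1 and Kif11 with MI-2-2 were at 0.015 and 0.0071 and Cenpa with iBET at -0.013. Without the filter 4 genes were called for EPZ5676 against DMSO and 2 for MI-2-2 against MM-401, where 26.5% and 24.6% of all genes were. The median with MI-2-2 was then -0.12. With the stricter filter 2 were called for iBET against MM-401, where 13.3% of all genes were. The median with MI-2-2 was -0.10, Kif11 with MM-401 was at -0.015, Plk1 with MI-2-2 at 0.0037 and Cenpa with iBET at -0.023. Fits of only the 2 groups compared called 0 genes in each of the EPZ5676, MI-2-2 and iBET comparisons with DMSO, where 9.34%, 9.12% and 0% of all genes were. They called 9 for MI-2-2 and 8 for iBET against MM-401, where 51.4% and 35% of all genes were. Kif11 with MM-401 was at -0.013 and Cenpa with iBET at -0.013.

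With the replicate number as a block, EPZ5676 had 11 called genes against DMSO, MI-2-2 had 8 and iBET had 12, with 8 for MI-2-2 and 3 for iBET against MM-401. Of all genes 47.6%, 50.6%, 23.8%, 46% and 19% were called in the same order. Deviations of libraries with the same number correlated at 0.311 to 0.716 over all 10 pairs of groups, but each group has only 2 numbers and the labels tie no number to a shared culture or day, so whether the numbers pair the libraries is not known.

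With 2 libraries per group, p-values of the main fit set a change against the spread between libraries. That spread was estimated from all 5 conditions together, the DMSO libraries among them. Small changes cannot be told from it.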
